A study of Rattus norvegicus with 35 samples.

Results

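The genes described here are the interleukins, the tumor necrosis factor (TNF) superfamily, their receptors and the TNF-induced proteins that the array measured in rat liver, without the interleukin 1 ligands and receptors. Members were all platform gene symbols that begin with Il and a digit, or with Tnfsf, Tnfrsf or Tnfaip, together with Tnf, leaving out the symbols Il1a, Il1b and those beginning with Il1r or Il1f. Only probe sets annotated to a single symbol were used, and the brightest probe set over all arrays stood for each gene. This gave 70 of the 13439 genes measured, with 86 probe sets in all. Of these, 45 were interleukin genes and 25 TNF genes. By role they comprised 22 interleukin ligands, 20 receptor-side interleukin genes, 4 soluble binding proteins or secreted relatives, 6 TNF ligands, 13 TNF receptors and 5 TNF-induced proteins. The symbol rule kept Il18, Il33 and Il36b, which belong to the interleukin 1 family by structure, and it placed Il36rn, a receptor antagonist, among the receptor genes. Il13ra1, Il13ra1-ps1 and Il13ra2 appeared only on probe sets with several symbols and were not used here.

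Rat liver RNA was measured on 35 arrays, in 6 groups. Control rats underwent a sham procedure (n = 5) or hemorrhage followed by resuscitation (H/R, n = 6). Rats with biliary cirrhosis, made by tying the common bile duct at both ends and removing the piece between 4 weeks earlier, underwent the sham procedure (n = 5) or H/R (n = 6). Ligated rats that had received simvastatin, a statin that inhibits cholesterol synthesis, at 5 mg/kg daily by gavage from 3 days before the experiment and last at 1 h before it, underwent the sham procedure (n = 5) or H/R (n = 8). The labels give no strain, age or sex, and do not state whether control rats had a sham operation or whether untreated ligated rats received the vehicle. Ligated rats also received weekly vitamin K, and the surgery used midazolam and ketamine. Nothing in the labels states that the arrays of a group came from separate animals processed separately, so p-values reflect only how these samples spread, which may be technical.

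Interleukins and TNF ligands are small secreted or membrane-bound proteins through which leukocytes, stromal cells and hepatocytes signal to one another. Most interleukin receptors act through Janus kinases and STAT transcription factors, while TNF receptors act through adaptor proteins that lead to NF-kappa-B activation or cell death. In liver, resident macrophages (Kupffer cells) are a main source of TNF and interleukin 6, hepatocytes answer interleukin 6 with acute-phase proteins, and interleukin 10 restrains macrophage activation.

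Values are the deposited log2 expression values, so a difference of 1 is a doubling. Differences were tested with limma over all 13439 genes, and "passed" means an adjusted p (Benjamini-Hochberg) under 0.05. The liver identity of the samples was clear in all groups, as the summed signal of 9 hepatocyte markers lay between 34239 and 52896 on the linear scale. Ligated livers carried the marks of biliary disease: the summed signal of 10 cholangiocyte markers ranged from 278 to 629 over the control arrays and from 3947 to 10135 over the ligated arrays. One array stood apart. Simvastatin sham replicate 1 had an actin 3' minus 5' probe difference of 4.30 against at most 2.34 on all other arrays, and a GAPDH difference of 2.20 against at most 0.34. Title numbers of the samples end in 2 digits whose meaning is not stated. All 11 control arrays end in 13 and no untreated ligated array does, so untreated ligated and control arrays cannot be compared within an ending. Of the ligated arrays with simvastatin, 3 sham and 6 H/R arrays do end in 13, and their values are set beside the controls after the ligation comparisons.

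Promoter sequences of 4 members with large ligation differences are shown. Their letters hold, or lack, the sites through which NF-kappa-B and STAT factors are known to act on cytokine genes. Il10 had no promoter entry and was not searched. The Tnfaip8 window is not printed and held no match to the motifs named below. The printed sequences span 250 bases before to 50 after the annotated start, from RefSeq on the GRCr8 rat assembly. They are written 5' to 3' on the gene's strand, with motif matches in capitals. The genes are Tnfrsf9 (chr5:166664244-166664543, + strand) and Il6 (chr4:5894526-5894825, - strand), which were lower in ligated livers, and Tnfsf13 (chr10:54901766-54902065, - strand) and Il18r1 (chr9:50223241-50223540, + strand), which were higher.
Tnfrsf9: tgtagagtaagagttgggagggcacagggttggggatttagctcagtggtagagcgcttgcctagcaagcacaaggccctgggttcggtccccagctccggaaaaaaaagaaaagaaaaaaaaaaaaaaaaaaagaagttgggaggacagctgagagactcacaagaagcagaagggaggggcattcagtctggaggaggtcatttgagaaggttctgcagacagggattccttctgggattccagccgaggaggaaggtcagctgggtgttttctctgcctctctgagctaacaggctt
Il6: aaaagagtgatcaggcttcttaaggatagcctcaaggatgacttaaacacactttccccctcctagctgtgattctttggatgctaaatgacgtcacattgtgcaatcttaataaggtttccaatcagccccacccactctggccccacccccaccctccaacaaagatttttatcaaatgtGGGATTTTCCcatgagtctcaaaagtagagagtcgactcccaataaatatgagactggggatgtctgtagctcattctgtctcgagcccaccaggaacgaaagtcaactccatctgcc
Tnfsf13: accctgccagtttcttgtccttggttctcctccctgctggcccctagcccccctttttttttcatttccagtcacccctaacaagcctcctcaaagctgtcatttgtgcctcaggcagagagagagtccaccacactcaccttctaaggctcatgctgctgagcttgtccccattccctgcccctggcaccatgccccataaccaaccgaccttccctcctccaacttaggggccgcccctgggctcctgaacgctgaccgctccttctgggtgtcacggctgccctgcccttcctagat
Il18r1: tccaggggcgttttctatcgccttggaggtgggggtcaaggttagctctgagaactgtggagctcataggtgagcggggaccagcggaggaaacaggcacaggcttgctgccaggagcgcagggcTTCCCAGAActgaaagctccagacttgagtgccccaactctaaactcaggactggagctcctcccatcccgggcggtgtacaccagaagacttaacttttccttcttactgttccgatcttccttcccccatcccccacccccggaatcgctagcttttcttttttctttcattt
The capitals in Il6 mark a match to the NF-kappa-B site that begins 68 bases before the start, at -68, and those in Il18r1 a match to the STAT site TTCNNNGAA that begins at -125. The start used for Il18r1 lies inside the gene, which begins at chr9:50223274. Its match is therefore within the gene and not upstream of it. Both strands were searched for these motifs and for the AP-1 site TGANTCA, and the Tnfrsf9 and Tnfsf13 windows held none of them.

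Over all 33469 promoters of the table, which belong to 27457 genes, 7.51% held the NF-kappa-B site, 8.87% the STAT site and 7.33% the AP-1 site. Of the 58 promoters of the 53 members with an entry, 8 (13.8%) held the NF-kappa-B site, 7 (12.1%) the STAT site and 7 (12.1%) the AP-1 site. Among the members that passed as lower in ligated sham livers, 5 of 20 promoters (25.0%) held the NF-kappa-B site. None of the 12 promoters of members that passed as higher did. The STAT site was in 4 of those 12 (33.3%) and in 2 of the 20 (10.0%). These are letter matches in a fixed window, with few promoters in each set, and give no information on binding.

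Many members lay near the array's background. Background was first set at the group mean of the brightest bacterial tryptophan control probe set, which no rat RNA should match. By that lenient level 69 of the 70 members were above background in at least 1 group and 58 in all 6, and Il17d was above it in none. Against the brightest nonspecific control probe set on each array, a stricter level chosen after the data were seen, 43 members were above background in at least 1 group, 29 in all 6 and 27 in none. The 27 were Il2, Il3, Il4, Il5, Il11, Il12a, Il12b, Il13, Il17b, Il17d, Il17f, Il23a, Il24, Il36b, Il36rn, Il2ra, Il5ra, Il9r, Il20rb, Il22ra2, Il27ra, Il4i1, Tnfsf4, Tnfsf11, Tnfrsf17, Tnfrsf19 and Tnfrsf25. Of the 22 interleukin ligands 14 were never above this level, against 6 of 20 receptor genes and 0 of 5 TNF-induced proteins. The nonspecific level itself differed between groups, with means of 4.51 in control sham, 4.59 in control H/R, 3.64 in ligated sham, 4.00 in ligated H/R, 3.26 in simvastatin sham and 3.32 in simvastatin H/R arrays. The tryptophan control level was 2.43 in control sham and 2.39 in ligated sham arrays.

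**Figure D1:**
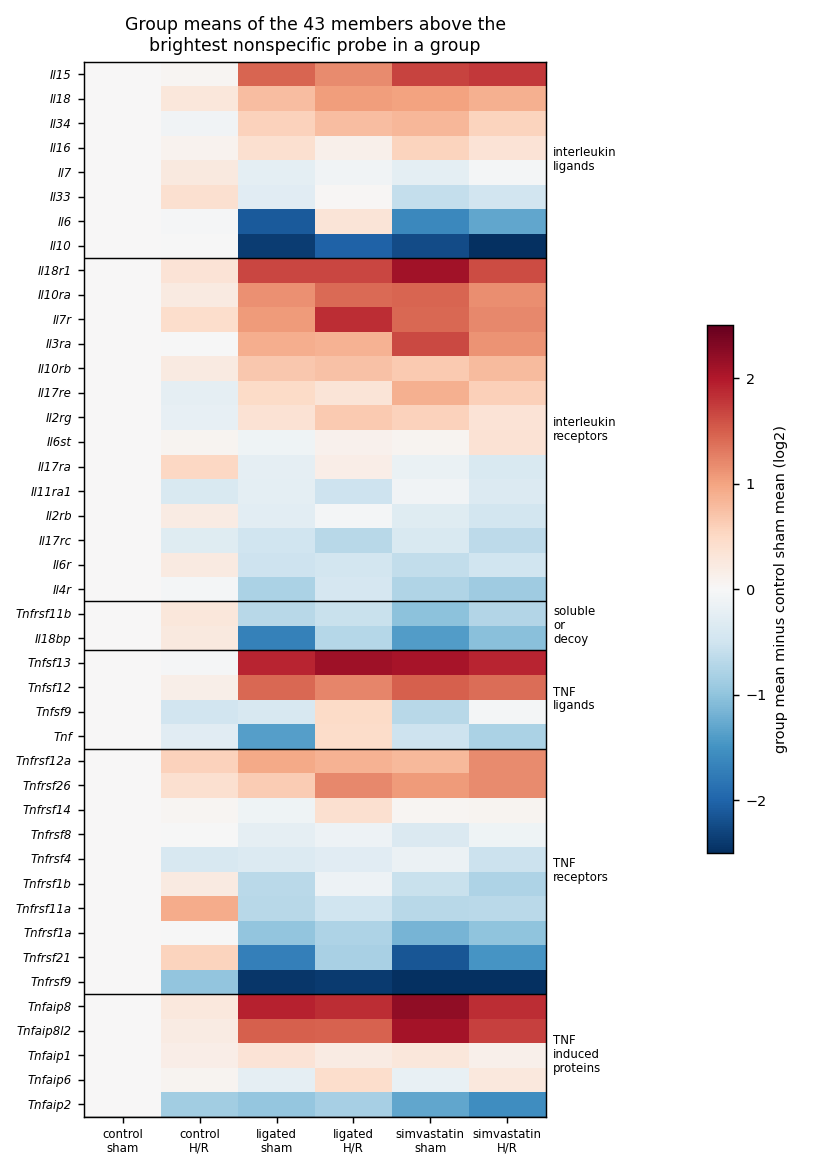
Heat map of the group mean of each of the 43 members above the brightest nonspecific probe in at least 1 group, minus its mean in control sham arrays (log2, color scale), with groups in columns (H/R, hemorrhage and resuscitation; simvastatin, ligated rats given simvastatin) and genes in rows ordered by role. The first column is 0 by construction, and most of the contrast lies between the 2 control columns and the 4 ligated ones.

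The first comparison asked which cytokine genes differ between cirrhotic and normal liver without hemorrhage. Ligated sham livers had less Il10, Il6, Tnf and several TNF receptor transcripts than control sham livers, and more transcripts of Il15, the TNF ligands Tnfsf12 and Tnfsf13, and the receptor chains Il18r1, Il10ra, Il7r and Il3ra. In all, 33 of 70 members passed, 14 higher and 19 lower. Over all genes 47.6% passed (25.3% higher and 22.4% lower), so the members' total share was near the background. The median log2 difference of the members was -0.20, and that of all genes -0.04. Of the 19 that were lower, 6 belonged to the 27 members never above the nonspecific probe level, and all 14 that were higher belonged to the other 43. Centring each array on its median moved all differences of this comparison by -0.19, and the median of all genes from -0.04 to -0.23. With that scaling 11 members passed as higher and 32 as lower, and no named member changed direction. The share of all genes passing under that scaling is not given here, so these counts are no result about the members. In bulk tissue, fewer cells of a type and less RNA per cell cannot be told apart.

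Among the 22 interleukin ligands 2 rose and 5 fell with ligation in sham rats. Il10, which restrains macrophage and T cell activation, had log2 values of 7.30, 6.34, 7.21, 6.75 and 7.31 in control sham arrays and 4.20, 4.42, 5.63, 4.32 and 4.43 in ligated sham arrays. The groups did not overlap, and ligated sham replicate 3 was the nearest to the controls. Il10 thus fell by 2.38 on the log2 scale (SE 0.32), which is 5.21-fold, with an adjusted p of 2.42e-07. Il6, the main inducer of the hepatic acute-phase response, read 5.60, 7.95, 9.06, 7.31 and 7.26 in control sham arrays and 4.15, 4.69, 5.89, 5.53 and 6.42 in ligated sham arrays. The ranges overlapped through control replicate 1, whose value lay among the ligated ones. Il6 fell by 2.10 (SE 0.67, 4.29-fold, adjusted p = 0.0104). Il15, which sustains natural killer and memory T cells, went the other way. Its values were 4.73, 4.36, 4.57, 3.93 and 4.27 in control sham arrays and 5.58, 6.42, 5.02, 6.60 and 5.53 in ligated sham arrays, with no overlap. Il15 rose by 1.46 (SE 0.30, adjusted p = 1.53e-04), and because its control mean of 4.37 was not above the nonspecific level the rise amounts to at least 2.50-fold.

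The remaining calls among interleukin ligands were small or near background. Il34, a ligand of the macrophage growth factor receptor Csf1r, rose by 0.58 (SE 0.21, adjusted p = 0.0201), with overlapping ranges of 3.48 to 4.18 in control sham and 4.13 to 4.72 in ligated sham arrays, the control mean not being above the nonspecific level. Il17b, Il24 and Il36b passed as lower by 0.69, 0.57 and 0.47 on the log2 scale, but their group means lay between 2.26 and 3.30, below the nonspecific level of their groups. Falls of that kind stand beside the lower nonspecific level of the ligated arrays, and its part in them was not tested. Il18, a macrophage and epithelial cytokine that induces interferon gamma, was 0.78 higher in ligated sham arrays, with an adjusted p of 0.0538. Il33, an alarm signal released by damaged stromal and endothelial cells, had means of 7.40 and 7.13 and a difference of -0.28 (95% interval -0.71 to 0.16, adjusted p = 0.292), while its second probe set differed by -0.65.

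Among the 20 receptor-side interleukin genes 5 rose and 4 fell. Il18r1, the ligand-binding chain of the interleukin 18 receptor, read 2.46, 2.95, 2.61, 2.78 and 2.91 in control sham arrays and 4.80, 4.25, 3.14, 4.94 and 4.91 in ligated sham arrays. The groups did not overlap, although ligated sham replicate 3 came within a short distance of the controls. The difference was 1.67 (SE 0.26, adjusted p = 2.17e-06). No fold is given, because the ligated mean of 4.41 did not exceed the nonspecific level of the control arrays. Il10ra, the ligand-binding chain of the interleukin 10 receptor, read 4.47, 5.61, 4.73, 4.22 and 4.76 in control sham and 6.01, 6.09, 5.22, 6.07 and 6.07 in ligated sham arrays. It rose by 1.13 (SE 0.24, adjusted p = 1.75e-04) on its brighter probe set, while a dimmer second probe set with a control mean of 2.78 differed by -0.30. Il10rb, the second chain of the same receptor, rose by 0.67 (SE 0.11, adjusted p = 1.24e-05). The gene of the ligand was therefore lower and the genes of both receptor chains higher in the same livers, with the reservation on the second Il10ra probe set.

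Il7r, the interleukin 7 receptor chain of lymphocytes, read 3.78, 4.34, 4.71, 4.30 and 4.20 in control sham and 5.09, 5.28, 4.84, 5.54 and 5.93 in ligated sham arrays. It rose by 1.07 (SE 0.27, adjusted p = 0.00167), at least 1.78-fold against the nonspecific level. Il3ra, the interleukin 3 receptor alpha chain carried by myeloid cells and basophils, rose by 0.91 (SE 0.21, adjusted p = 5.88e-04) from a control range of 3.77 to 4.81 to a range of 4.99 to 5.39 without overlap. As its control mean of 4.31 was not above the nonspecific level, this is at least 1.64-fold. Il4r, the shared receptor chain for interleukins 4 and 13, fell by 0.79 (SE 0.19, adjusted p = 7.85e-04). Il6r, the ligand-binding interleukin 6 receptor chain that hepatocytes carry, read 8.65, 8.45, 8.47, 8.42 and 8.53 in control sham and 7.81, 7.78, 8.03, 8.21 and 8.06 in ligated sham arrays, again without overlap. It fell by 0.53 (SE 0.16, adjusted p = 0.00727). Il6st, the signal-transducing chain shared by the interleukin 6 family, had means of 9.57 and 9.47, a difference of -0.10 (95% interval -0.44 to 0.24, adjusted p = 0.646). Il17rc and Il9r passed as lower by 0.50 and 0.36, the latter at means of 2.31 and 2.67 near background. Il17re did not pass on its brighter probe set, at a difference of 0.47, whereas its second probe set differed by 1.71.

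All 4 soluble or secreted members were lower in ligated sham livers. Il18bp, a secreted protein that binds and neutralises interleukin 18, read 7.83, 8.84, 8.03, 6.81 and 7.32 in control sham and 6.06, 5.62, 6.39, 6.09 and 6.24 in ligated sham arrays. The groups did not overlap, and Il18bp fell by 1.69 (SE 0.41, 3.22-fold, adjusted p = 9.43e-04). Tnfrsf11b (osteoprotegerin), the secreted decoy receptor for the ligand of RANK, fell by 0.70 (SE 0.27, adjusted p = 0.0337), with ranges of 4.78 to 5.58 in control and 4.11 to 4.90 in ligated sham arrays. Il4i1, a secreted amino acid oxidase, and Il22ra2, a soluble receptor that binds interleukin 22, passed as lower by 0.53 and 0.39, both at group means between 2.60 and 3.16 and near background. For interleukin 18, the binding protein was lower and the receptor chain Il18r1 higher, each with groups that did not overlap.

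Of the 6 TNF ligands 2 rose and 1 fell. Tnfsf13 (APRIL), a survival factor for plasma cells, read 6.04, 5.03, 5.31, 4.82 and 5.49 in control sham and 7.46, 7.40, 6.56, 7.51 and 7.24 in ligated sham arrays. The groups did not overlap. Tnfsf13 rose by 1.89 (SE 0.22, 3.72-fold, adjusted p = 1.06e-08), and its second probe set by 1.21. Tnfsf12 (TWEAK), a ligand known for driving progenitor and bile duct cell growth, read 4.71, 4.74, 4.97, 5.14 and 5.38 in control sham and 6.64, 6.77, 6.08, 6.28 and 6.37 in ligated sham arrays. It rose by 1.44 (SE 0.16, 2.72-fold, adjusted p = 7.34e-09). Tnfsf12 and Tnfsf13 had the smallest p-values of all members in this comparison, and neither overlapped between the groups.

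Tnf, the prototype of the family, read 8.01, 8.73, 9.29, 8.45 and 8.20 in control sham and 5.53, 6.95, 7.98, 6.83 and 8.47 in ligated sham arrays. The ligated values were the more scattered, and replicate 5 lay inside the control range. Tnf fell by 1.38 (SE 0.57, 2.61-fold), with an adjusted p of 0.0447 close to the threshold, and its dimmer second probe set differed by -0.56. The call was lost when any one of control sham replicates 2, 3 and 4 or ligated sham replicates 1, 2 and 4 was left out, with adjusted p between 0.0621 and 0.171. The highest of these was without ligated sham replicate 1, where the difference was -0.98.

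Among the 13 TNF receptors 2 rose and 4 fell. Tnfrsf9, a costimulatory receptor of activated T and natural killer cells, read 7.04, 7.65, 7.44, 7.67 and 7.38 in control sham and 4.46, 4.34, 6.14, 5.31 and 4.80 in ligated sham arrays. It had the largest fall of all members, by 2.43 (SE 0.40, 5.38-fold, adjusted p = 6.17e-06), without overlap. Tnfrsf21, a death-domain receptor, read 7.57, 8.06, 7.58, 8.07 and 8.16 in control sham and 6.51, 5.88, 7.04, 5.73 and 5.71 in ligated sham arrays. It fell by 1.71 (SE 0.37, 3.28-fold, adjusted p = 2.71e-04) on one probe set and by 1.57 on the other. Tnfrsf1a, the ubiquitous death-domain receptor for TNF, read 9.32, 9.39, 9.37, 9.66 and 9.48 in control sham and 8.33, 8.16, 9.20, 8.26 and 8.38 in ligated sham arrays. Ligated replicate 3 lay just below the lowest control, and the other 4 were lower by far. Tnfrsf1a fell by 0.98 (SE 0.18, 1.97-fold, adjusted p = 4.18e-05).

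Tnfrsf1b, the TNF receptor of immune and endothelial cells, fell by 0.68 (SE 0.27, adjusted p = 0.0388) with overlapping ranges of 4.49 to 5.60 and 4.07 to 4.68. Both TNF receptors and the TNF gene itself were thus lower in ligated than in control sham livers, the Tnf and Tnfrsf1b calls being close to the threshold. Tnfrsf12a, the receptor of TWEAK, read 7.26, 7.42, 7.39, 7.78 and 7.09 in control sham and 8.30, 8.67, 8.41, 8.26 and 8.04 in ligated sham arrays, without overlap. It rose by 0.95 (SE 0.26, 1.92-fold, adjusted p = 0.00294), so that the ligand Tnfsf12 and its receptor were both higher in sham rats. After H/R Tnfrsf12a did not pass, with ranges of 7.32 to 8.57 in control and 7.76 to 8.75 in ligated arrays. Tnfrsf26 rose by 0.63 (SE 0.22, adjusted p = 0.0203), with overlapping ranges, at least 1.31-fold from a control mean not above the nonspecific level.

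Of the 5 TNF-induced proteins 3 rose and 1 fell. Tnfaip8, a lipid-binding regulator of cell survival, read 3.02, 3.28, 3.01, 3.13 and 3.20 in control sham and 5.36, 5.33, 3.97, 5.32 and 5.23 in ligated sham arrays. The control values spread little and the ligated ones, apart from replicate 3, sat together well above them. The difference of 1.91 (SE 0.28, adjusted p = 1.10e-06) was at least 1.45-fold against the nonspecific level, which exceeded the control mean of 3.13. Tnfaip8l2, a brake on innate and T cell receptor signalling, read 4.47, 4.32, 4.43, 4.51 and 5.09 in control sham and 6.25, 6.46, 5.68, 6.00 and 5.92 in ligated sham arrays. It rose by 1.50 (SE 0.23, 2.82-fold, adjusted p = 1.90e-06). Tnfaip1 rose by 0.33 (SE 0.12, adjusted p = 0.0263), and Tnfaip2 fell by 0.96 (SE 0.37, adjusted p = 0.0318) with all 4 of its probe sets lower.

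**Figure D2:**
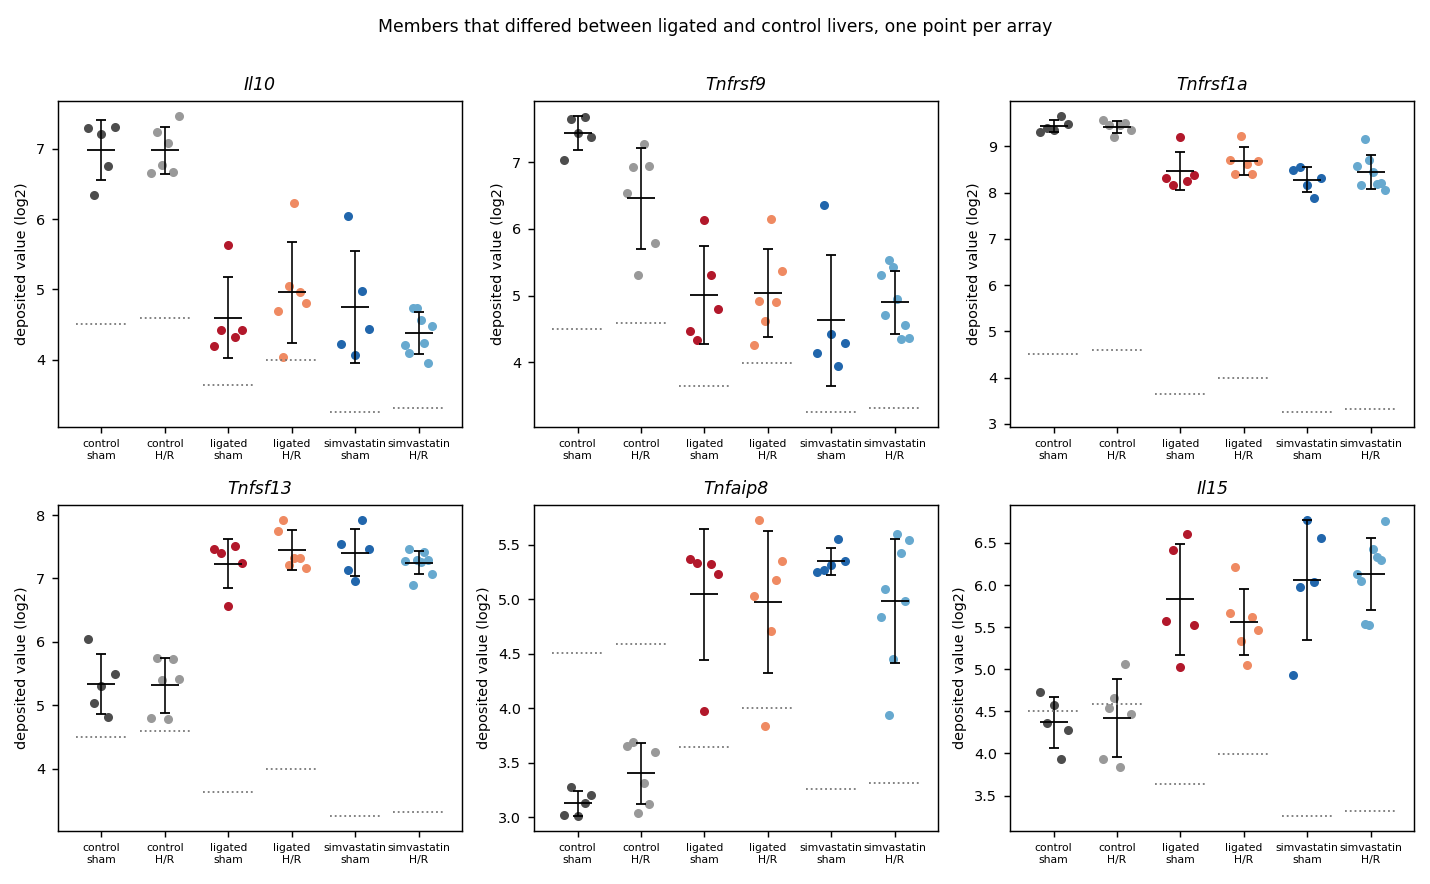
Deposited log2 values of Il10, Tnfrsf9, Tnfrsf1a, Tnfsf13, Tnfaip8 and Il15 on each of the 35 arrays, by group (H/R, hemorrhage and resuscitation; simvastatin, ligated rats given simvastatin). Bars give the mean and 1 SD, dotted lines the mean of the brightest nonspecific probe in the group. The axes do not start at 0. Il10 values were between 6.34 and 7.47 on control arrays and between 3.95 and 6.22 on ligated arrays.

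The calls differed in how far they rested on single arrays. Of the 33 members that passed in sham rats, 21 passed again whichever array was left out, among them Il10, Il6, Il15, Il18r1, Il10ra, Il18bp, Tnfsf12, Tnfsf13, Tnfrsf9, Tnfrsf21, Tnfrsf1a, Tnfrsf12a, Tnfaip8 and Tnfaip8l2. The other 12 lost their call without at least 1 array. Besides Tnf, Il17rc reached an adjusted p of 0.136 without control sham replicate 1, Il9r 0.151 without control sham replicate 2, and Tnfaip2 0.163 without control sham replicate 3. Without that same replicate 3, Tnfrsf1b reached 0.119, Tnfrsf26 0.0712 and Il24 0.0640. Without ligated sham replicate 1, Tnfrsf11b reached 0.0907 and Il34 0.0645. Il22ra2 reached 0.0742 without control sham replicate 2, Tnfaip1 0.0638 and Il36b 0.0509 without ligated sham replicate 4. All 12 kept their direction in these refits.

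The second comparison set ligated against control livers when both had undergone H/R. It shares no array with the first. The larger ligation differences were of the same kind: less Il10, Tnfrsf9, Tnfrsf21, Tnfrsf1a and Il6r, and more Tnfsf13, Tnfsf12, Tnfaip8, Tnfaip8l2, Il15, Il18r1, Il10ra and Il7r. In all, 27 of 70 members passed, 16 higher and 11 lower, while 47.0% of all genes passed (24.7% higher and 22.3% lower). The median difference of the members was 0.02 and that of all genes -0.03. Centring on the array median moved this comparison by -0.15 and gave 14 higher and 24 lower members. The share of all genes under that scaling is again not given. By role, 3 interleukin ligands rose and 2 fell, 7 receptor-side genes rose and 1 fell, 3 soluble members fell, 3 TNF ligands rose, 1 TNF receptor rose and 5 fell, and 2 TNF-induced proteins rose.

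Il10 ranged from 6.66 to 7.47 (median 6.93) over control H/R arrays and from 4.04 to 6.22 (median 4.88) over ligated H/R arrays. It fell by 2.02 (SE 0.29, 4.06-fold, adjusted p = 8.53e-07), again without overlap. Tnfsf13 ranged from 4.78 to 5.74 (median 5.41) and from 7.16 to 7.92 (median 7.33), and rose by 2.14 (SE 0.20, 4.40-fold, adjusted p = 1.30e-10). It was the largest rise and the smallest p of the members in this comparison. Tnfsf12 ranged from 4.92 to 5.30 (median 5.14) and from 5.74 to 6.44 (median 6.26), a rise by 1.08 (SE 0.15, adjusted p = 3.13e-07). Tnfaip8, from a range of 3.04 to 3.69 to one of 3.84 to 5.73, rose by 1.57 (SE 0.26, adjusted p = 6.31e-06). Il15 rose by 1.14 (SE 0.27, adjusted p = 8.86e-04), with ranges of 3.84 to 5.07 and 5.05 to 6.22 that met at their ends. Tnfrsf1a, with ranges of 9.20 to 9.57 and 8.40 to 9.22, fell by 0.75 (SE 0.17, adjusted p = 3.93e-04).

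Receptors and soluble members followed. Tnfrsf9 ranged from 5.30 to 7.26 (median 6.73) over control H/R arrays and from 4.26 to 6.15 (median 4.92) over ligated H/R arrays, and fell by 1.42 (adjusted p = 0.00163) with overlap. Tnfrsf21 fell by 1.38 (adjusted p = 0.00111), Il6r by 0.69 (adjusted p = 2.24e-04), and the soluble Il18bp, Tnfrsf11b and Il4i1 by 0.96, 0.84 and 0.39. Among the receptor chains that rose, Il7r rose by 1.41 (adjusted p = 2.20e-05), Il18r1 by 1.31 (adjusted p = 2.19e-05), Il10ra by 1.19 (adjusted p = 3.02e-05) and Il3ra by 0.87 (adjusted p = 3.19e-04). The control H/R means of Il3ra, Il18r1, Il34, Il15 and Tnfaip8 were not above the nonspecific level, which makes the rises at least 1.51-fold for Il3ra, 1.95-fold for Il15 and 1.30-fold for Tnfaip8. Il34 rose by 0.88, Tnfrsf26 by 0.80, Il10rb by 0.51 and Tnfaip8l2 by 1.26. The Il10 ligand and receptor genes thus differed in opposite directions after H/R too.

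A further 7 members passed after H/R but not in sham rats, which by itself does not show a difference between the comparisons. Tnfrsf11a (RANK), the receptor for RANK ligand, ranged from 2.95 to 6.14 (median 4.84) over control H/R arrays and from 3.15 to 3.36 over ligated H/R arrays. Its fall by 1.44 (SE 0.27, adjusted p = 5.91e-05) was at least 1.62-fold. Il2rg, the common gamma chain of lymphocyte cytokine receptors, rose by 0.85 (SE 0.18, adjusted p = 2.21e-04) without overlap, at least 1.62-fold from a control mean of 4.44 that was not above the nonspecific level. Il18 rose by 0.77 (SE 0.30, adjusted p = 0.0369), with ranges of 5.88 to 6.69 and 6.70 to 7.96. Tnfsf9, the ligand of Tnfrsf9, rose by 0.94 (SE 0.39, adjusted p = 0.0433). Il27ra, Il5 and Tnfrsf19 passed at group means between 2.35 and 3.11, near background. Of the 27 calls 21 held whichever array was left out. The exceptions were Il18bp (adjusted p up to 0.124, without control H/R replicate 4), Il18 (0.113, without ligated H/R replicate 1), Tnfsf9 (0.122, without ligated H/R replicate 5), Il5 (0.157, without control H/R replicate 5), and Tnfrsf19 and Il4i1 (0.136 and 0.0767, without control H/R replicate 2).

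In both ligation comparisons 20 members, 12 higher and 8 lower, passed in the same direction and none in opposite directions. They make up 60.6% of the sham calls and 74.1% of the calls after H/R. Over all genes, 77.0% of the sham calls were called alike after H/R. The 12 higher in both were Il15, Il34, Il18r1, Il10ra, Il10rb, Il7r, Il3ra, Tnfsf12, Tnfsf13, Tnfrsf26, Tnfaip8 and Tnfaip8l2. The 8 lower in both were Il10, Il6r, Il18bp, Il4i1, Tnfrsf11b, Tnfrsf9, Tnfrsf21 and Tnfrsf1a. Il6 and Tnf did not follow this pattern. After H/R their ligation differences were 0.36 (95% interval -0.89 to 1.61) and 0.74 (95% interval -0.32 to 1.80), with adjusted p of 0.660 and 0.251.

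The ligated arrays with simvastatin that carry the controls' title ending 13 were set beside the control arrays. These differ from the controls in drug as well as ligation, the comparison was added after the data were seen, and it has no test. The 20 members are those that passed in both ligation comparisons, against the same control arrays. Agreement in direction is therefore partly built in. For all 20 members the mean differed from the controls in the direction of the ligation difference, both for 3 simvastatin sham arrays against 5 control sham arrays and for 6 simvastatin H/R arrays against 6 control H/R arrays. The ranges did not overlap for 18 of the 20 in sham and for 12 of the 20 in H/R arrays. The share of all genes without overlap on these arrays was not computed, so the counts show nothing particular to the members. Il10 ranged from 4.07 to 4.98 over the 3 sham arrays, beside 6.34 to 7.31 in control sham, and from 3.95 to 4.74 over the 6 H/R arrays, beside 6.66 to 7.47 in control H/R. Tnfsf13 ranged from 6.96 to 7.92 and from 6.90 to 7.46, beside 4.82 to 6.04 and 4.78 to 5.74 in the controls. Within this ending the differences of means were -2.49 and -2.64 for Il10 and 2.11 and 1.92 for Tnfsf13.

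**Figure D3:**
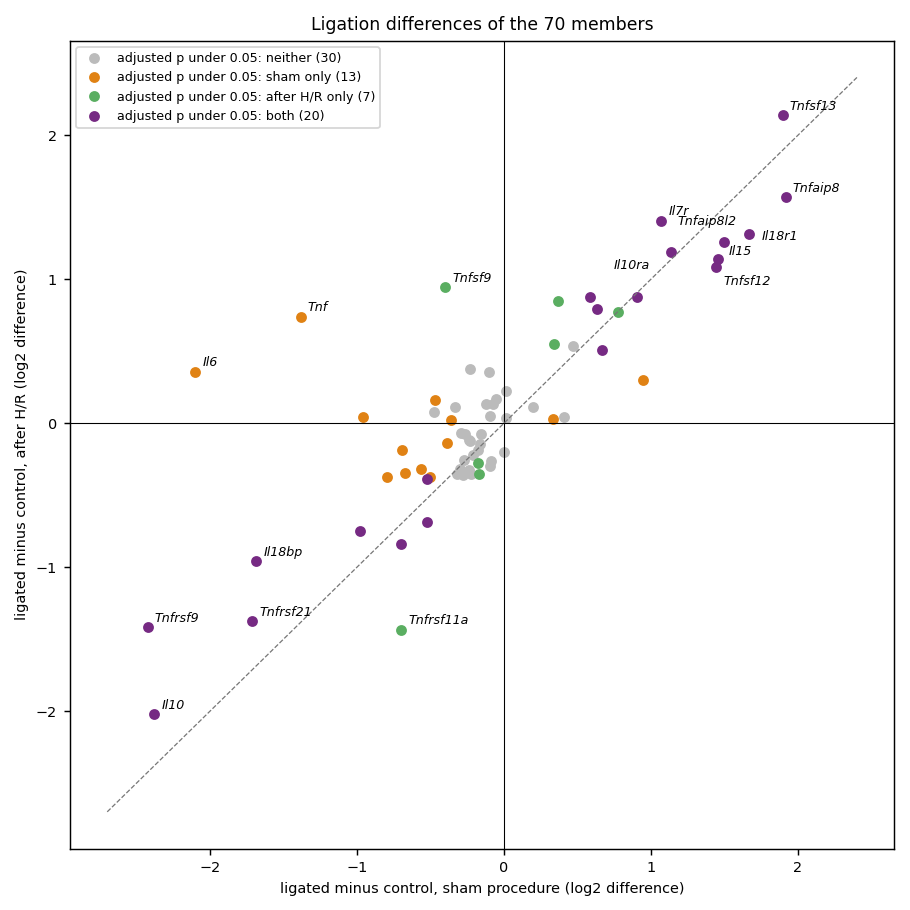
Log2 difference between ligated and control livers for each of the 70 members, in sham rats (horizontal axis) and after hemorrhage and resuscitation, H/R (vertical axis), with the dashed line marking equal differences. Colors give in which comparison the member had an adjusted p under 0.05. Il6 at -2.10 and 0.36 and Tnf at -1.38 and 0.74 lie farthest above the line.

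Of the other genes of these pathways, between 39.3% and 44.4% passed in each of the first 4 lists below in ligated sham livers, near the 47.6% of all genes. Of 28 measured genes from TNF receptors to NF-kappa-B, 4 were higher and 7 lower in ligated sham livers. Tab1, an activator of the kinase TAK1, rose by 0.97 (SE 0.14, adjusted p = 8.73e-07), and Ripk1, the kinase bound to the TNF receptor, fell by 0.82 (SE 0.13, adjusted p = 4.51e-06). Of 18 JAK and STAT pathway genes 3 were higher and 5 lower, with Socs5, a suppressor of cytokine signalling, up by 1.41 (SE 0.16, adjusted p = 6.25e-09). Stat5b, which carries growth hormone and interleukin signals, fell by 1.59 (SE 0.19, adjusted p = 1.64e-08). Its ligated sham mean of 3.51 was not above the nonspecific level of 3.64, so this fall is measured into background. Of 19 genes of the interleukin 6 family and other cytokines outside the symbol rule 5 were higher and 3 lower, including rises of Ifngr1, an interferon gamma receptor chain, by 1.16 (SE 0.16) and of Csf1r, the macrophage growth factor receptor, by 1.01 (SE 0.23). Their adjusted p were 5.24e-07 and 5.30e-04. Of 9 TNF superfamily genes with other symbols 1 was higher, Ltb (lymphotoxin beta) by 1.08 (SE 0.30, adjusted p = 0.00298), and 3 lower, among them the death receptor gene Fas by 0.98 (SE 0.31, adjusted p = 0.0107).

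Of 15 genes listed here as interleukin 6 targets in hepatocytes, 10 fell and 1 rose in ligated sham livers, with a median of -0.51. Over all genes 22.4% fell and 25.3% rose, and the median was -0.04. Fgb, the fibrinogen beta chain, fell by 0.51 (SE 0.10, adjusted p = 1.13e-04), and Saa4, an amyloid A protein of plasma lipoproteins, by 0.80 (SE 0.17, adjusted p = 1.91e-04). After H/R 2 of the 15 were higher and 3 lower in ligated livers, 33.3% in all beside 47.0% of all genes. This list includes Il4r, which is also a member. Il6 itself and its receptor chain Il6r were lower in the same sham comparison. Of 9 hepatocyte markers 2 were lower and 0 higher there, with a median of -0.25. Whether any of these bears on the 15 genes was not tested.

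Markers of several cell types moved with ligation, and their part in the member results was not tested. Of 9 Kupffer cell and macrophage markers 5 were higher and 1 lower in ligated sham livers. Their summed linear signal ranged from 1810 to 3066 in control sham and from 4908 to 7870 in ligated sham arrays. The markers did not move alike. Clec4f had a mean of 8.81 in control sham and 6.09 in ligated sham arrays. Cd163 had means of 6.41 and 6.42, and Cd68 of 6.65 and 7.12. Of 12 stellate cell and myofibroblast markers 10 were higher and 0 lower, their sum ranging from 1573 to 1890 and from 4037 to 6704. Of 10 cholangiocyte markers 9 were higher and 0 lower. Of 14 T and natural killer cell markers 4 were higher and 3 lower, their sums of 177 to 227 and 180 to 231 overlapping throughout, and 12 of the 14 were not above the nonspecific level in control sham arrays against 10 in ligated sham arrays. None of 6 neutrophil markers passed, with sums of 154 to 1140 and 340 to 549.

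The third comparison asked what H/R did in control livers. No member passed, where 0.856% of all genes (115) did. In limma 1635 of all 13439 genes had an unadjusted p under 0.05, 761 higher and 874 lower. Of the 70 members 10 did, 3 higher and 7 lower. The smallest p belonged to Il17ra, the receptor chain shared by interleukin 17 cytokines. Its values were 7.40, 7.69, 7.72, 7.25 and 7.33 in control sham arrays and ranged from 7.46 to 8.51 (median 7.97) after H/R, a difference of 0.53 (95% interval 0.20 to 0.85, adjusted p = 0.113). Without control H/R replicate 5 this became an adjusted p of 0.0336. Tnfrsf11a was 0.93 higher (95% interval 0.34 to 1.51, adjusted p = 0.118), with 5 of 6 arrays above the sham mean. That sham mean of 3.77 was not above the nonspecific level, so the differences given for Tnfrsf11a are measured from background. Without control H/R replicate 2, whose value was the lowest, its difference was 1.28 and its adjusted p 0.00160. Tnfrsf9 and Tnfaip2 differed by -0.98 and -0.88, with adjusted p of 0.241 and 0.269, and the near-background Il36b by -0.38 (adjusted p = 0.230). The differences of Il6 and Tnf were -0.04 (95% interval -1.35 to 1.27) and -0.29 (95% interval -1.40 to 0.82).

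In untreated ligated livers H/R was accompanied by higher Il6 and Tnf values that did not pass the test across all genes. No member passed, where 0.134% of all genes (18) did. In limma 1401 of all 13439 genes had an unadjusted p under 0.05, 679 higher and 722 lower. Of the 70 members 11 did, all of them higher. Il6 read 4.15, 4.69, 5.89, 5.53 and 6.42 in ligated sham arrays and ranged from 5.49 to 8.98 (median 8.07) in ligated H/R arrays. Of the 6 H/R arrays 5 lay above every sham array, and replicate 4 lay among them. The difference of 2.42 (95% interval 1.11 to 3.73) was the largest of the members, with an adjusted p of 0.132. Tnf ranged from 8.22 to 9.53 (median 9.13) after H/R, where ligated sham arrays had read 5.53 to 8.47. It differed by 1.83 (95% interval 0.72 to 2.95, adjusted p = 0.193) on its brighter probe set and by 0.24 on the dimmer one.

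Il7r was 0.77 higher after H/R in ligated livers (95% interval 0.24 to 1.31, adjusted p = 0.278), Tnfrsf26 0.57 higher and the near-background Il12a 0.35 higher. Il10 differed by 0.36 (95% interval -0.27 to 0.98; 0.11 without ligated H/R replicate 4 and 0.62 without ligated sham replicate 3) and Il15 by -0.27 (95% interval -0.85 to 0.31). Within title ending 06, which held 1 H/R and 3 sham arrays, Il6 differed by 3.72 and Tnf by 2.55. Within ending 03, with 2 H/R and 1 sham array, the differences were 0.81 and 0.46.

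No gene of the 5 lists of other pathway genes passed in this comparison. Over all 13439 genes, 679 were higher and 722 lower with an unadjusted p under 0.05 in limma. By the same measure 6 of 28 NF-kappa-B pathway genes and 4 of 19 other cytokine genes were higher. So were 7 of the 15 genes listed as interleukin 6 targets and 1 of 9 TNF superfamily genes with other symbols. None of these lists had a lower gene. Of 18 JAK and STAT genes 2 were higher and 2 lower, with a median of -0.04. The following genes had the smallest p of their lists. Csf2, a granulocyte and macrophage growth factor near background in sham arrays, was 1.67 higher (SE 0.42, adjusted p = 0.0975), and Nfkbiz, an NF-kappa-B cofactor for interleukin 6 transcription, 1.23 higher (SE 0.36, adjusted p = 0.176). Socs3, which interleukin 6 induces, was 1.18 higher (SE 0.43, adjusted p = 0.333), and the plasma protein gene A2m, a rat acute-phase gene, 1.23 higher (SE 0.27, adjusted p = 0.0508) without overlap. None of the 6 neutrophil markers passed, but 4 had an unadjusted p under 0.05 and their median difference was 1.12. Their summed signal ranged from 340 to 549 in ligated sham and from 315 to 5324 in ligated H/R arrays, and its part in the Il6 and Tnf values was not tested.

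Whether the H/R difference was unlike in ligated and in control livers was tested directly. No member passed, where 0.00744% of all genes (1) did. In limma 734 of all 13439 genes had an unadjusted p under 0.05, 358 higher and 376 lower. Of the 70 members 4 did, all of them higher. Tnf had a difference of effects of 2.12 (95% interval 0.55 to 3.69, adjusted p = 0.727), Il6 of 2.46 (95% interval 0.60 to 4.31, adjusted p = 0.727) and Tnfsf9 of 1.34 (95% interval 0.18 to 2.51, adjusted p = 0.853). The near-background Il36b and Il17b had 0.62 and 0.51.

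In ligated rats given simvastatin, no member passed between H/R and sham arrays, and no gene of the array did (0.0%). In limma 725 genes had an unadjusted p under 0.05, among them 4 members, 1 higher and 3 lower. Il3ra differed by -0.53 (95% interval -0.91 to -0.14, adjusted p = 0.849), Il18r1 by -0.48, Tnfrsf4, a T cell costimulatory receptor, by -0.40, Il6st by 0.31 and Tnfrsf21 by 0.65. Simvastatin sham replicate 1 held the highest sham values of Il3ra (6.74) and Il18r1 (5.34) and the lowest of Tnfrsf21 (4.68). Over the alternative fits the differences ranged from -0.61 to -0.28 for Il3ra, from -0.60 to -0.35 for Il18r1 and from 0.25 to 0.86 for Tnfrsf21. Il6 read 5.37, 7.86, 5.45, 5.55 and 4.89 in simvastatin sham arrays and ranged from 4.43 to 8.23 (median 5.94) after H/R, a difference of 0.32 (95% interval -0.91 to 1.56). Tnf read 9.49, 8.56, 7.23, 7.53 and 7.32 and then ranged from 5.32 to 9.83 (median 7.79), a difference of -0.29 (95% interval -1.33 to 0.76). Both genes scattered widely within these groups, and the highest sham value of Tnf was on replicate 1, the array with the high actin and GAPDH differences. Without it the difference of Tnf was 0.08. Without simvastatin sham replicate 2 that of Il6 was 0.83, and without simvastatin H/R replicate 1 it was 0.02.

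**Figure D4:**
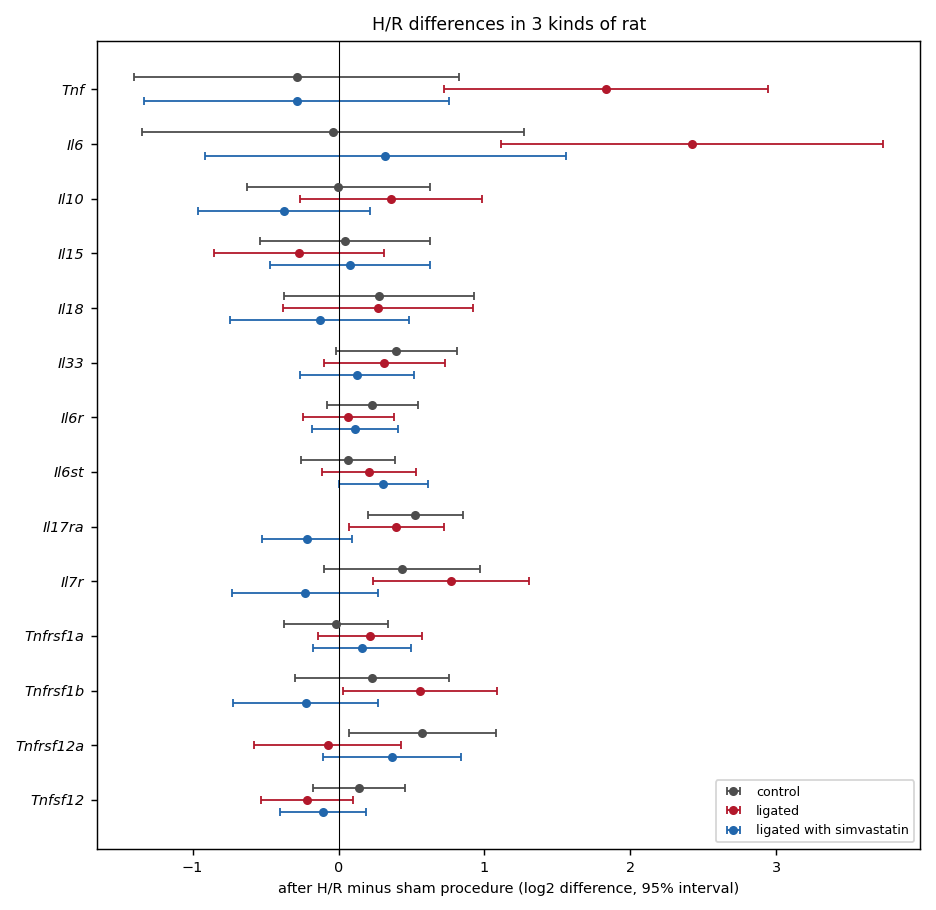
Log2 difference between arrays after hemorrhage and resuscitation (H/R) and sham arrays, with 95% intervals from the limma fit, for 14 members in control rats, ligated rats and ligated rats given simvastatin. Intervals of Il6 (2.42) and Tnf (1.83) in untreated ligated rats lie above 0, but no member passed after adjustment over all genes in any of the 3 comparisons.

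Simvastatin in ligated sham rats was compared with no drug. No member passed, where 0.781% of all genes (105) did. In limma 1453 of all 13439 genes had an unadjusted p under 0.05, 852 higher and 601 lower. Of the 70 members 5 did, 2 higher and 3 lower. Il3ra came nearest. It read 5.06, 5.35, 5.39, 4.99 and 5.30 in ligated sham and 6.74, 5.69, 5.71, 6.03 and 5.63 in simvastatin sham arrays, without overlap, a difference of 0.74 (95% interval 0.32 to 1.17, adjusted p = 0.0999). The value of 6.74 was on simvastatin sham replicate 1, the array with the high actin and GAPDH differences. Over the alternative fits, which include leaving out each array, the difference of Il3ra ranged from 0.53 to 0.82. Tnfaip8l2 was 0.58 higher (95% interval 0.11 to 1.04, adjusted p = 0.321). Il5, Il11 and Il12b, all near background, were 0.34 to 0.38 lower, beside a nonspecific level of 3.26 against 3.64. Il10, Il6 and Tnf differed by 0.15, 0.49 and 0.88, with 95% intervals of -0.50 to 0.80, -0.88 to 1.86 and -0.29 to 2.04. Single arrays moved these values: without simvastatin sham replicate 2 Il10 differed by -0.17 and Il6 by -0.02. Without simvastatin sham replicate 1 Tnf differed by 0.51, and without ligated sham replicate 1 by 0.47.

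Simvastatin after H/R gave the single call outside the ligation comparisons. Il17ra, which ranged from 7.26 to 7.90 (median 7.71) in ligated H/R arrays and from 6.87 to 7.37 (median 7.08) in simvastatin H/R arrays, was lower by 0.56 (95% interval -0.85 to -0.27, adjusted p = 0.0403). The ranges overlapped slightly, and all 8 treated arrays were below the untreated mean of 7.65. It was 1 of 70 members, while 1.35% of all genes (182) passed. The call was lost without any one of ligated H/R replicates 1, 2 and 4 or simvastatin H/R replicates 2, 6, 7 and 8, with adjusted p between 0.0648 and 0.119. With the title ending as a block, which leaves only the 2 treated and 2 untreated arrays ending in 12 to compare, the difference was -0.42 and the adjusted p 0.799.

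In the same comparison 1932 of all 13439 genes had an unadjusted p under 0.05 in limma, 1007 higher and 925 lower. Of the 70 members 16 did, 15 of them lower, and the median of the members was -0.10 against 0.00 for all genes. Il6 differed by -1.61 (95% interval -2.78 to -0.44, adjusted p = 0.166), 7 of 8 treated arrays being below the untreated mean. Tnf differed by -1.25 (95% interval -2.24 to -0.25, adjusted p = 0.214) on its brighter probe set and by 0.07 on the dimmer. Il4r, Tnfrsf1b and Il33 differed by -0.46, -0.65 and -0.51, with adjusted p of 0.160, 0.163 and 0.165. Il33's second probe set differed by -0.42. Il6st was 0.26 higher on its brightest probe set and 0.14 to 0.25 lower on the other 3. The near-background Il22ra2 and Il12a were 0.35 and 0.29 lower. Within title ending 12, Il6 differed by -1.57 and Tnf by -1.55. Neutrophil markers, none of which passed, had a median difference of -0.94 and sums of 315 to 5324 in untreated and 255 to 1399 in treated H/R arrays, and their part was not tested.

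**Figure D5:**
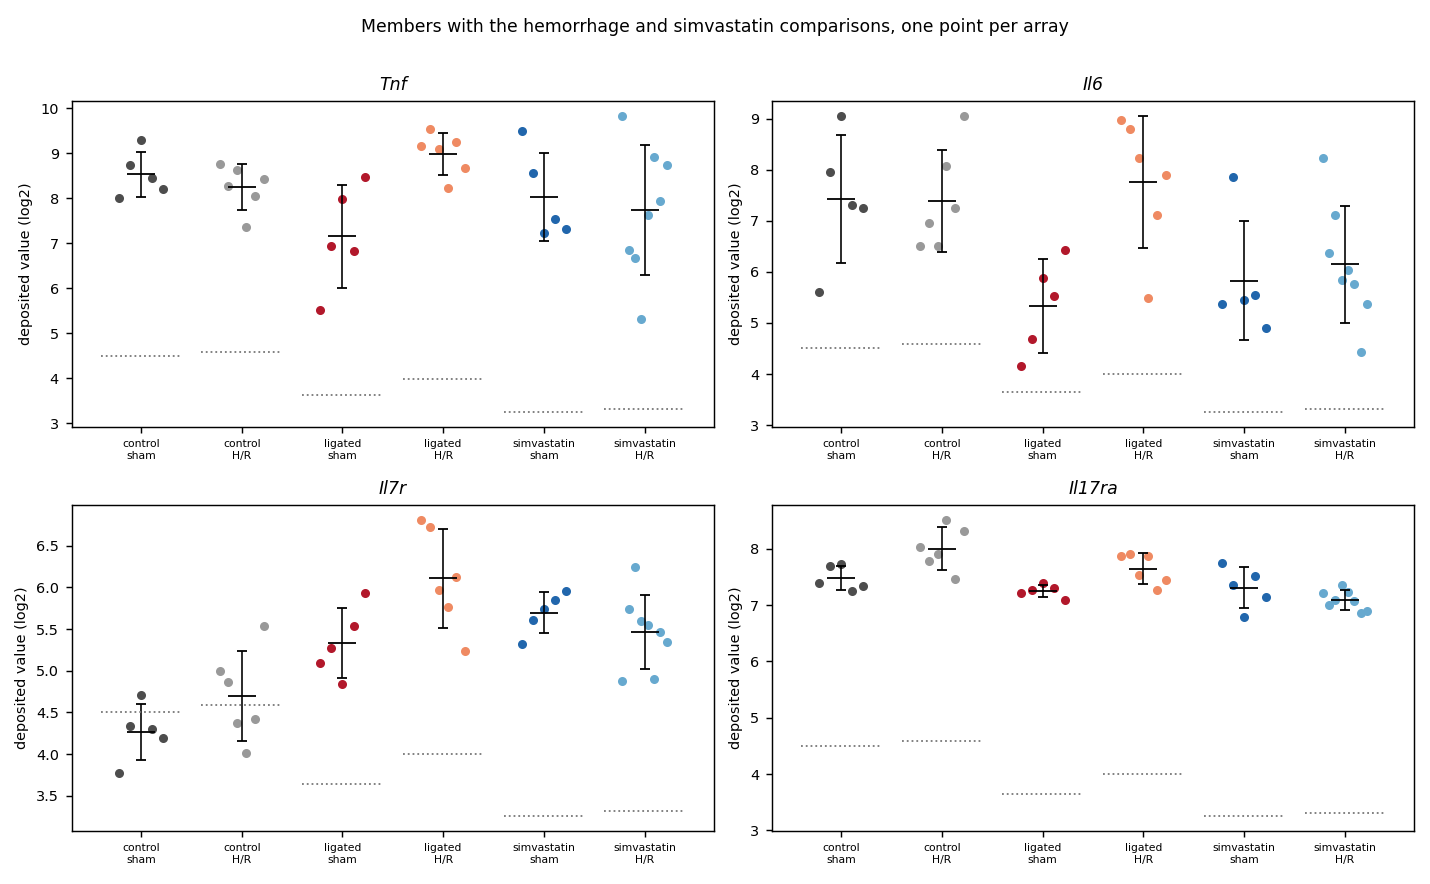
Deposited log2 values of Tnf, Il6, Il7r and Il17ra on each of the 35 arrays, by group (H/R, hemorrhage and resuscitation; simvastatin, ligated rats given simvastatin), with the mean and 1 SD as bars and the mean of the brightest nonspecific probe as dotted lines. The axes do not start at 0. Tnf in ligated H/R arrays lay between 8.22 and 9.53, while the simvastatin H/R arrays spread from 5.32 to 9.83.

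The difference between the H/R effects with and without simvastatin was also tested. No member passed, where 0.00744% of all genes (1) did. Tnf had a difference of effects of -2.12 (95% interval -3.65 to -0.59, adjusted p = 0.783), Il6 of -2.10 (95% interval -3.90 to -0.30, adjusted p = 0.911), Il17ra of -0.61 (95% interval -1.06 to -0.16) and Il7r one with a 95% interval of -1.74 to -0.27. The last 2 had an adjusted p of 0.798. The near-background Il12a had -0.42. This comparison shares the ligated arrays with the H/R and simvastatin comparisons above and is no separate evidence.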

How the data were processed

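Liver RNA of 35 samples was measured on Affymetrix rat arrays, and the log2 expression values of 31139 probe sets were used as deposited by the authors. The sources used here do not name the normalization behind them. Array medians lay between 3.97 and 4.29. Of the probe sets 19069 had 1 gene symbol, 572 several and 11498 none, and the brightest single-symbol probe set stood for each of 13439 genes. One limma fit (version 3.58.1, R 4.3.3) over all 6 groups gave 9 comparisons, with p-values adjusted by Benjamini-Hochberg over all genes and a threshold of 0.05. The number of arrays limits the precision. Named genes were, per role and ligation comparison, up to 4 rises and 4 falls that passed, the 5 smallest p where fewer passed, and a list of 12 central genes. Members and lists were chosen with earlier results of these data known. Alternatives were another normalization, array weights, dim-gene filters, title-ending blocks and leaving out each array. The fit was tested on simulated data.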

Additional observations from a re-analysis of the deposited data

Results flagged for a closer look

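Single arrays far from the rest of their group, relative to its range, were found in 27 of 270 groups of values, where chance gives about 5%. Ligated sham replicate 3 stood apart toward the controls for Il10 (5.63, nearest other 4.43), Il10ra (5.22), Tnfaip8 (3.97), Tnfrsf1a (9.20) and Tnfsf13 (6.56). Ligated sham replicate 4 was high for Il24 (2.56), and replicate 1 low for Il4i1 (2.37). In ligated H/R arrays, replicate 4 was high for Il18bp (8.54).

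Simvastatin sham replicate 1 had the actin 3' minus 5' difference of 4.30 and the GAPDH difference of 2.20, and stood apart for Il17b (2.47), Il17rc (5.97), Il24 (2.76) and Tnfsf12 (7.17). Simvastatin sham replicate 2 was high for Il6 (7.86), Il6r (8.24) and Tnfrsf9 (6.35). Simvastatin sham replicate 3 was low for Il10ra (5.74) and high for Il4i1 (3.29), and replicate 4 was high for Tnfrsf4 (4.05). Simvastatin H/R replicate 1 was high for Tnfaip2 (6.89), and replicate 3 low for Tnfaip8l2 (5.56).

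Among control arrays, sham replicate 2 stood apart for Tnfaip1 (8.81) and for the actin difference (2.34), and sham replicate 5 for Tnfaip8l2 (5.09). Control H/R replicate 5 was high for Il5 (3.41), and replicate 2 low for Tnfrsf11b (4.72).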

How the results depend on the processing

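Of 1841 alternative values for 95 tested results, 1718 kept their direction and side of the threshold, 116 lost their call, 7 gained one and none reversed. In simvastatin after H/R the 1 member called became 6 with array weights (1 higher, 5 lower), 0 with the title ending as a block, and 0 to 3 when single arrays were left out, 3 being reached without ligated H/R replicate 5. In H/R in control rats the count was 0 to 1 when single arrays were left out, the 1 being Tnfrsf11a without replicate 2 and Il17ra without replicate 5. In the ligation comparisons leaving out single arrays gave 27 to 33 members in sham rats and 21 to 29 after H/R. The shares of all genes passing under these settings are not given here, so changes in these counts are no result about the members. Members above background numbered 69 against the tryptophan control, 43 against the nonspecific probe (added after the data were seen) and 40 against the 50th percentile. No paired analysis was possible because the labels carry no replicate numbers that match samples across groups. Dim probes limit what can be said of the 27 members below the nonspecific level.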
